A study of Mus musculus with 4 samples.

Results

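The genes described here are Atf4, 20 of its reported transcriptional targets and 20 genes for subunits of cytosolic aminoacyl-tRNA synthetases, 41 in all, read in regulatory T (Treg) cells made in culture. They were taken by gene name from the spots of 4 single-colour Agilent arrays, with spots of one probe averaged and each gene read by its probe of highest mean signal. Of the 41 genes, 40 passed a filter on dim probes, which asked for a signal well above background on each array of 1 genotype or both, and entered a comparison of 22486 gene names. Stc2 was well above background on array 2 of each genotype and not on array 1, and was not tested.

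The 4 arrays were 2 labelled Junbfl/flCd4-Cre, from mice with both Junb alleles floxed and Cre expressed from the T-cell promoter Cd4, and 2 labelled Junbfl/fl, from mice with the same floxed alleles and no Cre. All mice were C57BL/6. In both genotypes naive CD4+ T cells (CD62L high, CD44 low, CD25 negative) were sorted and cultured for 3 days on plate-bound anti-CD3 (1 μg/ml) with anti-CD28 (0.5 μg/ml), antibodies against IFN-γ and IL-4 (5 μg/ml each) and human TGF-β1 (5 ng/ml). Titles number the arrays 1 and 2 within a genotype. The labels do not tell separate mice or cultures from repeat measurements, and the p-values therefore cover only the spread between arrays, which may be technical. All 4 arrays lay on 1 slide read in 1 scan, with both arrays numbered 1 in slide row 1 and both numbered 2 in slide row 2, so that array number and slide row cannot be told apart.

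ATF4 is a transcription factor whose protein is made when the initiation factor eIF2 is phosphorylated, by GCN2 during amino acid shortage or by PERK during stress in the endoplasmic reticulum. Its targets include enzymes and transporters that supply amino acids, aminoacyl-tRNA synthetases, which attach amino acids to their tRNAs, and factors that close the response. In T cells the pathway is known for adjusting amino acid supply after activation. Because ATF4 is controlled largely at translation, its mRNA is not a measure of its activity.

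Junb, the targeted gene, was read by 2 probes. In the coding region (chromosome 8, 87501881 to 87501940, mm9) processed signals were 4.11 and 1.47, both indistinct from background, on the arrays labelled Junbfl/flCd4-Cre, against 47.2 and 31.7 on those labelled Junbfl/fl. A probe nearer the 3′ end (87500843 to 87500902) read 1053 and 10078 on the Junbfl/flCd4-Cre arrays and 9791 and 9072 on the Junbfl/fl arrays, so by this probe Junbfl/flCd4-Cre array 2 was as high as the Junbfl/fl arrays. Which stretch of Junb is floxed is not known here, and the genotypes below are those of the labels. Signals are given as log2 levels, the log2 of the processed signal minus the 75th percentile of its array. Between 61.0% and 66.3% of the spots on the Junbfl/flCd4-Cre arrays and between 59.3% and 60.5% on the Junbfl/fl arrays were well above background. The summed signal of 8 T-cell markers, in multiples of the 75th percentile, was 783 and 697 on the Junbfl/flCd4-Cre arrays and 893 and 869 on the Junbfl/fl arrays. Foxp3, the defining Treg transcription factor, was well measured at log2 levels of 1.32 and 2.53 on the Junbfl/flCd4-Cre arrays and 3.09 and 3.17 on the Junbfl/fl arrays, a difference of -1.20 ± 0.46 that was not called (limma adjusted p = 0.13). Of the other 4 Treg markers, Ikzf2 was called higher (4.56 ± 0.50), Ctla4 was called lower (-1.47 ± 0.23), and Il2ra (-1.67 ± 0.36) and Tnfrsf18 (0.13 ± 0.32) were not called by limma. An extraction label names colon, and 4 of 8 listed colon epithelium markers passed the filter, with a summed signal between 0.59 and 0.75 on all arrays.

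The short element through which ATF4 and its C/EBP partners bind DNA is the C/EBP-ATF response element, searched here as the letters TGATGNAA on both strands of RefSeq promoter windows (assembly GRCm38.p6) that run from 250 bases before to 50 bases after a gene's start. Windows were found for 32 of the 41 genes (not for Cth, Aldh1l2, Cars, Hars, Lars, Nars, Rars, Vars and Wars), and 14 of the 32 held the letters, against 3.97% of all 32851 windows and 4.51% of the 27025 genes with one. They were present for 9 of 19 genes among Atf4 and its targets (Asns, Atf3, Chac1, Nupr1, Pck2, Pycr1, Slc7a11, Trib3 and Vldlr) and for 5 of 13 synthetase genes (Aars, Gars, Iars, Tars and Yars). A gene with several windows was counted where any of them held the letters. The stretches printed next are those of 6 targets whose signal was at least 2-fold lower on array 1 in both genotypes, and of 2 synthetases for comparison, read 5′ to 3′ on the gene's strand, with the matched letters in capitals (TTNCATCA where the match is on the other strand).
Chac1: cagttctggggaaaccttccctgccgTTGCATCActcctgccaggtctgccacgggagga
Asns: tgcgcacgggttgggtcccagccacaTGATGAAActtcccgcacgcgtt
Nupr1: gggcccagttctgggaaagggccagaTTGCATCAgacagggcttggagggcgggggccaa
Atf3: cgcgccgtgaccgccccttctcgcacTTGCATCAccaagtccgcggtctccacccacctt
Pycr1: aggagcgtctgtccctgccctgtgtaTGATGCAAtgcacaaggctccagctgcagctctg
Pck2: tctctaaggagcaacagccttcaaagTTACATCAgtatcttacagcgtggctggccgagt
Gars: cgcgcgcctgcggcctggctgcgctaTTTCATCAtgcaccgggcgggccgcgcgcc
Tars: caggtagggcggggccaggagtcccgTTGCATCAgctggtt
The Chac1 stretch is chr2:119351023-119351082 on the plus strand, with its match starting 193 bases before the start site. That of Asns is chr6:7693210-7693258 (minus strand, match 23 bases before the start) and that of Nupr1 is chr7:126625547-126625606 (minus strand, 110 bases before). Atf3 lies at chr1:191183410-191183469 (minus strand, 110 bases before), Pycr1 at chr11:120643818-120643877 (minus strand, 103 bases before) and Pck2 at chr14:55540137-55540196 (plus strand, 103 bases before). The Gars stretch is chr6:55037945-55038000 (plus strand, 30 bases before) and the Tars stretch chr15:11399659-11399699 (minus strand, 15 bases before). A match of letters is a description of these windows and not a binding site.

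Among Atf4 and its targets no gene was called changed between genotypes in the fit without a block, and the arrays numbered 1 and 2 stood much further apart than the genotypes did. Array 1 was lower than array 2 in both genotypes for 17 of the 20 tested genes, against 29.4% of all genes, and at least 2-fold lower in both for 10, against 3.26% of all genes. Taken singly, 13 were at least 2-fold lower on array 1 in Junbfl/flCd4-Cre and 12 in Junbfl/fl, against 5.8% and 6.91% of all genes. The Junbfl/fl count includes Slc7a11, whose array 1 signal was not well above background. Its difference was -0.50 with that signal raised to the lowest one well above background. None of the 20 was higher on array 1 in both genotypes, as 34.1% of all genes were and 0.587% by at least 2-fold. In 11 of the 20 the array-number difference was larger than the genotype difference in both genotypes, against 14.7% of all genes. The array-number differences compare 1 array with 1 array and have no replicate check within a genotype. Of all genes 8.51% were called between genotypes by limma at an adjusted p under 0.05, 7.06% higher and 1.45% lower, and 41.4% had an unadjusted p under 0.05. Among the 20 this unadjusted count was 2, Vldlr (above 0) and Aldh18a1 (below 0), and 1, Aldh18a1, with the filter on all 4 arrays. With the array number, and so the slide row, as a block, limma called 4 of the 20 lower, against 9.29% of all genes (30.5% in either direction). These were Nupr1, Cth, Aldh18a1 and Asns, with limma adjusted p of 0.014, 0.026, 0.036 and 0.038. Vldlr, Slc7a11 and Aldh1l2 passed the filter through the Junbfl/flCd4-Cre arrays alone, and Atf3 and Cth through the Junbfl/fl arrays alone, so that the direction of these 5 was favoured by the filter.

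**Figure D1:**
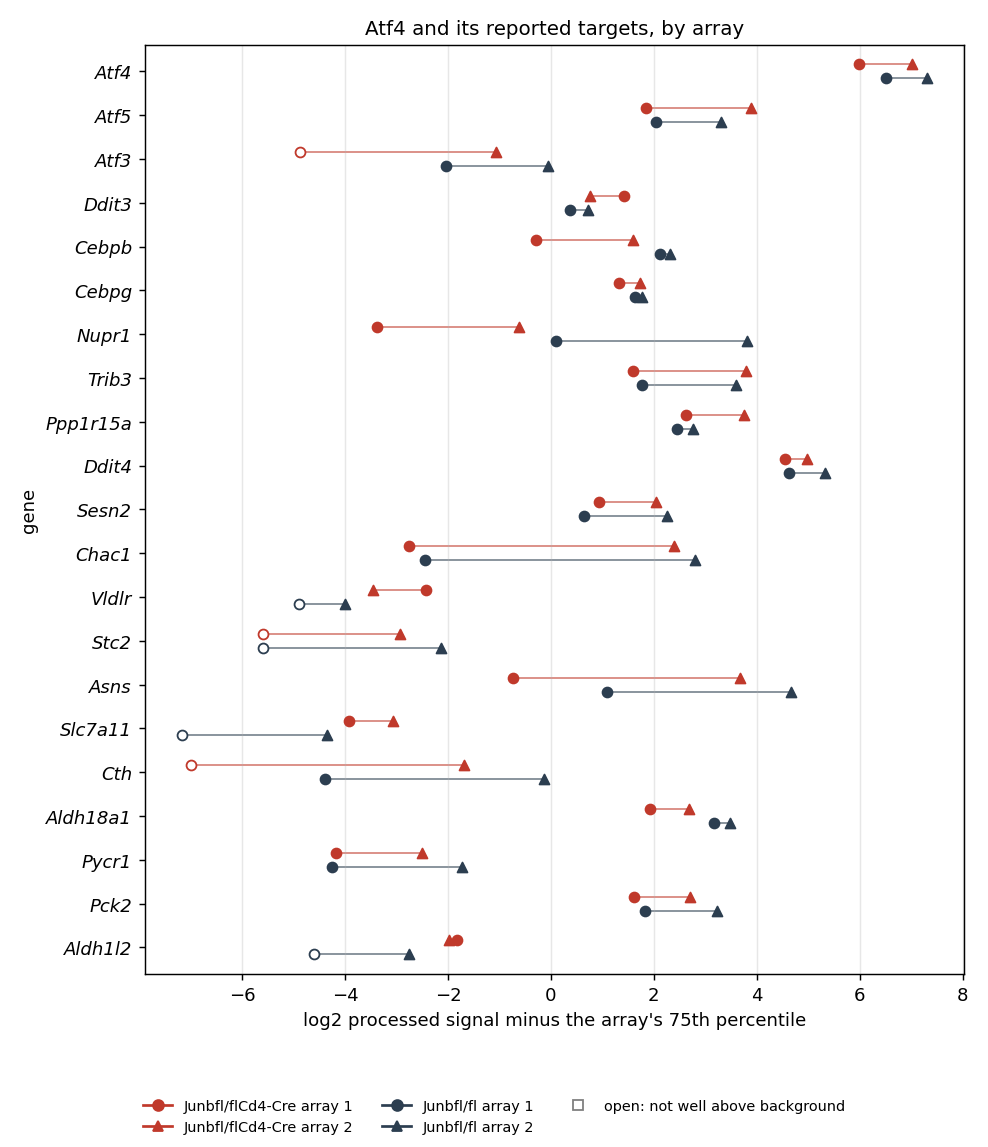
Log2 level (processed signal minus the 75th percentile of its array) of Atf4 and its 20 reported targets, 1 row per gene, with arrays labelled Junbfl/flCd4-Cre in red above those labelled Junbfl/fl in dark blue, circles for array 1 and triangles for array 2, and open symbols where the probe was not well above background. In 18 of the 21 rows the triangle lies right of the circle in both colours, with the widest gaps for Chac1, Cth and Asns, and the red and blue lines overlap in 14 rows.

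The transcription factors of the group were read first. Atf4 itself had log2 levels of 5.98 and 7.01 on Junbfl/flCd4-Cre arrays 1 and 2, and of 6.51 and 7.30 on Junbfl/fl arrays 1 and 2. The genotypes overlapped, and array 1 was the lower of each pair, by 1.03 and 0.79. The genotype difference was -0.41 ± 0.49 (SE, n = 2 arrays each; limma adjusted p = 0.54). Ddit3, which encodes the stress factor CHOP, had levels of 1.41 and 0.76 on the Junbfl/flCd4-Cre arrays and 0.37 and 0.72 on the Junbfl/fl arrays, a difference of 0.54 ± 0.30 (limma adjusted p = 0.24). Its genotypes did not overlap, but its second probe, with the RefSeq transcript, ran the other way by number in Junbfl/flCd4-Cre: array 1 lay below array 2 by 1.09 in Junbfl/flCd4-Cre and 0.81 in Junbfl/fl, where the brighter probe gave 0.66 above and 0.34 below.

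Nupr1, a small stress-induced regulator of transcription, showed the lowest genotype difference of the 40 tested members. Its log2 levels were -3.38 and -0.63 on the Junbfl/flCd4-Cre arrays and 0.09 and 3.80 on the Junbfl/fl arrays. The genotypes did not overlap and array 1 was again the lower of each pair, by 2.76 and 3.71, and the difference of -3.95 ± 1.66 was not called without the block (limma adjusted p = 0.16). The difference was -3.48 between the arrays numbered 1 and -4.43 between those numbered 2, whereas a second, dimmer Nupr1 probe gave 0.19. Atf3, a stress-induced repressor, had levels of -4.88 (not well above background) and -1.07 on the Junbfl/flCd4-Cre arrays and -2.04 and -0.05 on the Junbfl/fl arrays. Its signal was at least 12.9-fold higher on array 2 than on array 1 in Junbfl/flCd4-Cre and 3.97-fold in Junbfl/fl, and its genotypes overlapped (-1.93 ± 1.55, limma adjusted p = 0.38).

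Cebpb, a C/EBP factor that pairs with ATF4, had levels of -0.29 and 1.59 on the Junbfl/flCd4-Cre arrays and 2.12 and 2.32 on the Junbfl/fl arrays. Here both Junbfl/flCd4-Cre arrays were below both Junbfl/fl arrays, the first by more, and the difference of -1.57 ± 0.69 was not called (limma adjusted p = 0.17). Atf5, a close relative of Atf4, and Cebpg, another C/EBP partner, overlapped between genotypes. Atf5 was lower on array 1 by 2.03 in Junbfl/flCd4-Cre and 1.26 in Junbfl/fl, and Cebpg by 0.39 and 0.15. Over the 7 factors the median genotype difference was -0.41, with 5 values below 0.

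The 6 tested feedback and stress effectors had genotype differences from -0.37 to 1.50 with a median of 0.02, 2 below 0 and 4 above, and none was called. Trib3, a pseudokinase that binds and restrains ATF4, had levels of 1.60 and 3.80 on the Junbfl/flCd4-Cre arrays and 1.76 and 3.60 on the Junbfl/fl arrays. Both genotypes spanned the same range, and the difference was 0.01 ± 1.04 (limma adjusted p = 0.99). Chac1, an enzyme that breaks down glutathione, had levels of -2.76 and 2.39 on the Junbfl/flCd4-Cre arrays and -2.44 and 2.81 on the Junbfl/fl arrays. Array 2 was thus 35.7-fold above array 1 in Junbfl/flCd4-Cre and 38.0-fold in Junbfl/fl, while the genotype difference was -0.37 ± 2.64 (limma adjusted p = 0.92). Ranked by the smaller of its array-number differences, Chac1 was first among the 6618 genes that were lower on array 1 in both genotypes.

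Ppp1r15a encodes GADD34, the phosphatase subunit that removes phosphate from eIF2. Its levels were 2.63 and 3.76 on the Junbfl/flCd4-Cre arrays and 2.45 and 2.76 on the Junbfl/fl arrays, overlapping, with a difference of 0.59 ± 0.44 (limma adjusted p = 0.35). Vldlr, a lipoprotein receptor, was close to background at -2.43 and -3.46 on the Junbfl/flCd4-Cre arrays and -4.89 (not well above background) and -3.99 on the Junbfl/fl arrays, a difference of 1.50 ± 0.51 (limma adjusted p = 0.11). It was one of the 3 tested targets that were not lower on array 1 in both genotypes, with Ddit3 and Aldh1l2. Sesn2, a sestrin that restrains mTORC1, was lower on array 1 by 1.11 in Junbfl/flCd4-Cre and 1.60 in Junbfl/fl, and Ddit4, another mTORC1 inhibitor, by 0.43 and 0.69. Stc2, a secreted glycoprotein, was at least 3.57-fold higher on array 2 in Junbfl/flCd4-Cre and at least 6.60-fold in Junbfl/fl.

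The enzymes and transporters of amino acid supply had a median genotype difference of -0.38 over 7 tested genes, with none called. Asns, asparagine synthetase, had levels of -0.73 and 3.68 on the Junbfl/flCd4-Cre arrays and 1.10 and 4.67 on the Junbfl/fl arrays. Array 2 was 21.3-fold above array 1 in Junbfl/flCd4-Cre and 11.9-fold in Junbfl/fl, the genotypes overlapped, and the difference was -1.41 ± 2.04 (limma adjusted p = 0.61). A second Asns probe gave the same order by number, with array 1 lower by 2.22 and 3.77. Cth, cystathionine gamma-lyase, which makes cysteine, had levels of -7.00 (not well above background) and -1.70 on the Junbfl/flCd4-Cre arrays and -4.38 and -0.13 on the Junbfl/fl arrays. It was at least 8.38-fold higher on array 2 in Junbfl/flCd4-Cre and 19.1-fold in Junbfl/fl, with an overlapping genotype difference of -2.09 ± 2.44 (limma adjusted p = 0.53). In the ranking that Chac1 led, Cth stood at place 2 and Asns at place 4 by measured signals, but at places 6 and 3 once signals not well above background were raised to the lowest signal well above background on their array. The Cth genotype difference was then -0.97.

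Slc7a11, the cystine and glutamate antiporter, was dim, at -3.92 and -3.07 on the Junbfl/flCd4-Cre arrays and -7.17 (not well above background) and -4.35 on the Junbfl/fl arrays. The fitted difference of 2.26 ± 1.07 (limma adjusted p = 0.19) rests on the signal near background on Junbfl/fl array 1 and was 1.10 with that signal raised to the lowest one well above background, and its 3 other probes were not well above background on any array. Aldh1l2, a mitochondrial folate enzyme, had levels of -1.83 and -1.98 on the Junbfl/flCd4-Cre arrays and -4.60 (not well above background) and -2.75 on the Junbfl/fl arrays. Its difference was 1.77 ± 0.68 (limma adjusted p = 0.14), but its other probes gave 0.96 and -1.86. Among the proline and gluconeogenic enzymes, Aldh18a1 differed by -1.03 ± 0.32 between genotypes without overlap (limma adjusted p = 0.10). Pycr1 was lower on array 1 by 1.67 in Junbfl/flCd4-Cre and 2.52 in Junbfl/fl, and its genotype difference was -0.35 by one probe and 2.32 by the other. Pck2 was lower on array 1 by 1.09 and 1.39.

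**Figure D2:**
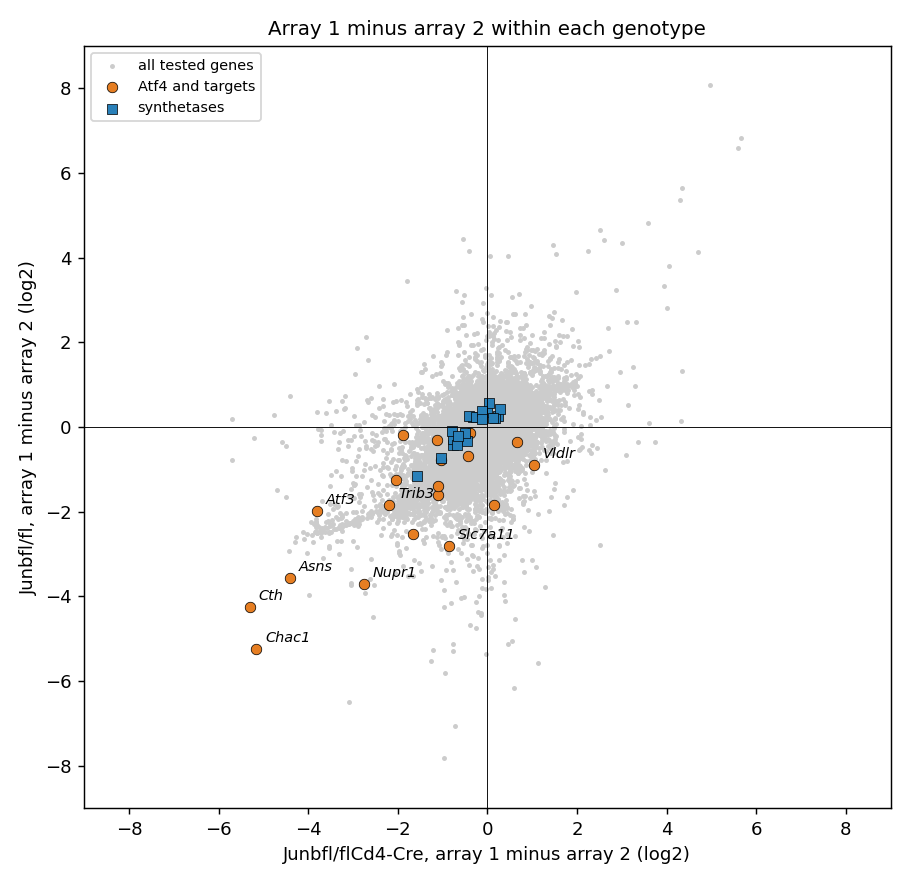
Array 1 minus array 2 (log2) within Junbfl/flCd4-Cre on the x axis and within Junbfl/fl on the y axis, for all 22486 tested genes in grey, Atf4 and its tested targets as orange circles and the synthetases as blue squares. Chac1, Cth, Asns and Nupr1 lie at the far lower left, below array 2 in both genotypes, while the synthetases lie near the centre. The Cth value on the x axis uses an array 1 signal that was not well above background.

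Over the 20 tested genes the median array-number difference was -1.11 in Junbfl/flCd4-Cre and -1.49 in Junbfl/fl, against 0.02 in each over all genes. The Junbfl/fl median was -1.32 with dim signals raised to the lowest one well above background on their array. The median genotype difference was -0.28, with 12 values below 0 and 8 above, against 0.01 over all genes. It was -0.21 between the arrays numbered 1 and -0.31 between those numbered 2. Leaving out one array could turn its direction: the median was 0.52 without Junbfl/flCd4-Cre array 1 and 0.55 without Junbfl/fl array 2. It was -0.92 without Junbfl/flCd4-Cre array 2, whose 3′ Junb signal was as high as on the Junbfl/fl arrays, and -0.86 without Junbfl/fl array 1. The genotypes did not overlap in 7 of the 20, 3 lower and 4 higher, against 75.1% of all genes (38.5% lower, 36.6% higher). Of the 15 measured well above background by every array, 3 were lower without overlap (Nupr1, Cebpb and Aldh18a1) and 1 higher (Ddit3).

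Of the 11 targets at least 2-fold lower on array 1 in both genotypes, Stc2 included, 10 had a promoter window and 7 of these held TGATGNAA (Asns, Atf3, Chac1, Nupr1, Pck2, Pycr1 and Trib3). Atf5, Sesn2 and Stc2 did not hold it in their windows. Of the other 9 genes of the group with a window 2 held it, Slc7a11 and Vldlr. The stretches of Chac1, Asns and Nupr1 printed above thus belong to genes whose array 2 signals were between 6.76-fold and 38.0-fold above array 1 in either genotype.

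B-cell and myeloid markers, summed, were higher on array 1, though single markers ran in both directions. The summed signal of 5 measured B-cell markers was 5.70 and 3.90 on Junbfl/flCd4-Cre arrays 1 and 2 and 2.96 and 0.93 on Junbfl/fl arrays 1 and 2, with 3 of the 5 higher and 2 lower on array 1 in both genotypes. That of 5 measured myeloid markers was 60.9 and 32.2 on the Junbfl/flCd4-Cre arrays and 26.1 and 17.7 on the Junbfl/fl arrays, with 2 of the 5 higher and 2 lower on array 1 in both. Most of the myeloid sum was Itgam, at log2 levels of 5.78 and 4.39 on the Junbfl/flCd4-Cre arrays and 4.57 and 3.75 on the Junbfl/fl arrays. Lyz2 was also higher on array 1 in both genotypes, and Csf1r and Cd68 were lower in both. The T-cell sum was higher on array 1 too, by less. The sums of 5 stroma markers (7.31 and 9.95 on the Junbfl/flCd4-Cre arrays, 65.7 and 43.0 on the Junbfl/fl arrays) and of the colon epithelium markers (0.70 and 0.75, against 0.60 and 0.59) were lower on array 1 in Junbfl/flCd4-Cre and higher in Junbfl/fl. Most of the stroma sum was Vim, at log2 levels of 2.61 and 3.18 on the Junbfl/flCd4-Cre arrays and 6.02 and 5.41 on the Junbfl/fl arrays. Vim differed by -2.82 between genotypes, while the other 4 stroma markers had differences above 0. Of the 5 stroma markers, 3 were higher and 0 lower on array 1 in both genotypes. The part of these cells, and of slide row, in the array-number difference of the ATF4 targets was not tested. In bulk RNA a different share of cells and a different amount of RNA per cell cannot be told apart.

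The synthetases were mostly lower on the arrays labelled Junbfl/flCd4-Cre, by less than 2-fold in all but Hars. Of the 20 genes, 19 were lower on the arrays labelled Junbfl/flCd4-Cre by their mean, against 49.5% of all genes, and 15 did so without overlap, against 38.5% of all genes. One, Hars, was called lower (1.45% of all genes were). None was called higher (7.06% of all genes were), and the 9 with an unadjusted p under 0.05 were all lower (41.4% of all genes had such a p in either direction). The same 19 were lower in the arrays numbered 1 and again in those numbered 2, against 42.8% of all genes lower in both. The B-cell and myeloid sums given above were higher on the Junbfl/flCd4-Cre arrays. All 5 differences of each list were above 0, and 5 of 8 T-cell markers were below 0. Over all genes, 17.9% were below 0 in the dimmest of 5 equal bins by mean signal and 78.3% in the brightest. The median log2 level was -1.79 for the B-cell, 0.13 for the myeloid and 6.45 for the T-cell markers. The part of signal strength in these marker differences was not tested. Nor was the part of the marked cells in the synthetase differences.

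Hars, histidyl-tRNA synthetase, had log2 levels of 0.80 and 0.64 on the Junbfl/flCd4-Cre arrays and 1.96 and 1.74 on the Junbfl/fl arrays. The genotypes were well apart and the arrays of each close together, with means of 0.72 ± 0.11 and 1.85 ± 0.16 (SD, n = 2 each). Hars fell by 1.12 on the log2 scale in Junbfl/flCd4-Cre (SE 0.17, limma adjusted p = 0.044). With the array number as a block 4 of the 20 synthetases, Hars, Kars, Nars and Tars, were called lower by limma. Of all genes 9.29% were called lower in that fit, and 30.5% in either direction. A second, dimmer Hars probe gave a difference of -0.13, and the call held in 4 of 13 alternatives, over which the adjusted p ran from 0.021 to 0.18.

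Nars and Gars had the next lowest differences. Nars, asparaginyl-tRNA synthetase, had levels of -0.01 and 1.57 on the Junbfl/flCd4-Cre arrays and 1.08 and 2.23 on the Junbfl/fl arrays. It had the widest array-number gaps of the 20 synthetases, lower on array 1 by 1.58 in Junbfl/flCd4-Cre and 1.15 in Junbfl/fl, and its genotypes overlapped (-0.88 ± 0.71, limma adjusted p = 0.39). Gars, glycyl-tRNA synthetase, had levels of 5.48 and 6.26 on the Junbfl/flCd4-Cre arrays and 6.58 and 6.86 on the Junbfl/fl arrays. Both Junbfl/flCd4-Cre arrays were below both Junbfl/fl arrays, and the difference of -0.85 ± 0.33 was not called (limma adjusted p = 0.14).

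**Figure D3:**
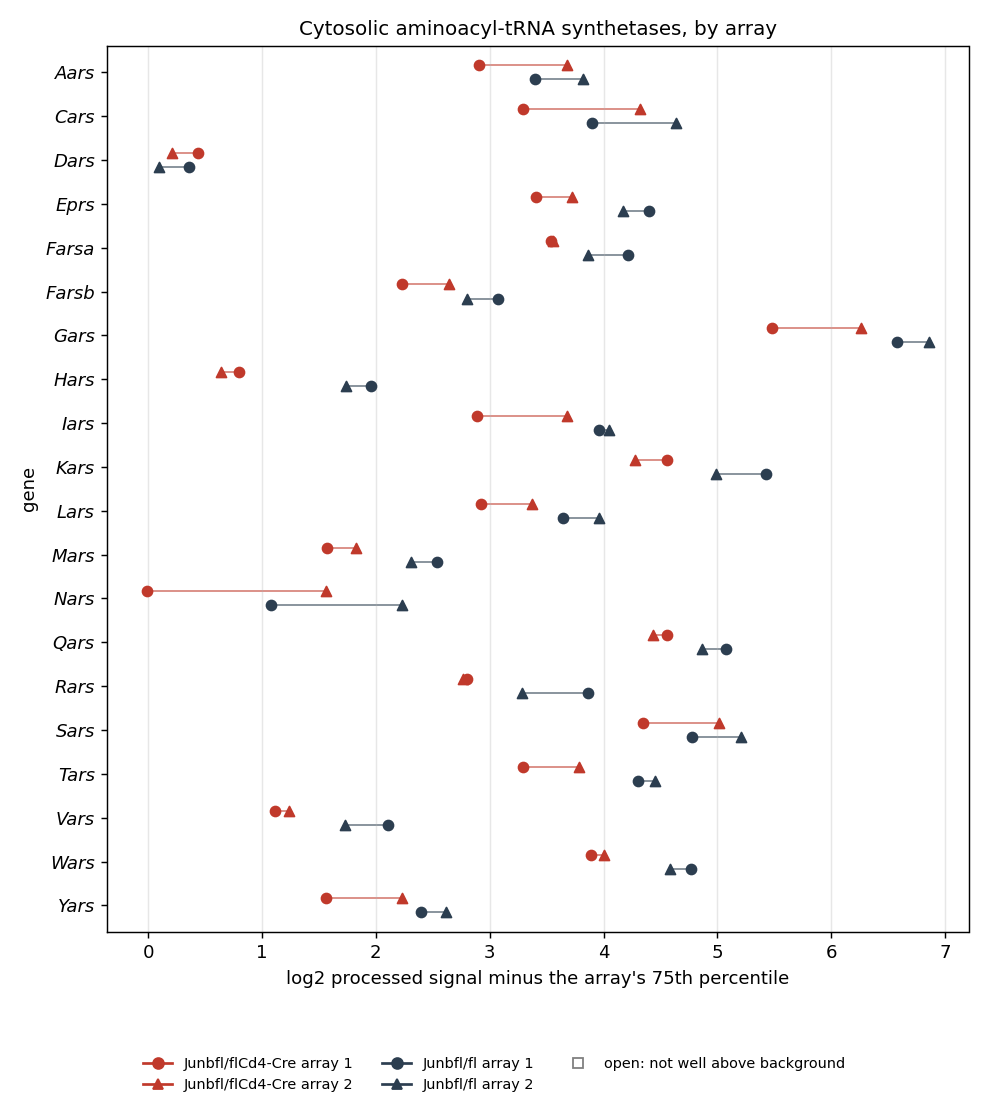
Log2 level (processed signal minus the 75th percentile of its array) of the 20 cytosolic synthetase subunits, 1 row per gene, with arrays labelled Junbfl/flCd4-Cre in red above those labelled Junbfl/fl in dark blue, circles for array 1 and triangles for array 2. The red pair lies left of the blue pair without overlap in 15 rows, and Dars is the 1 row whose Junbfl/flCd4-Cre mean is the higher.

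The other 17 synthetases had differences between -0.84 and 0.10, with adjusted p-values no lower than 0.067. Those lower without overlap were Eprs, Farsa, Farsb, Iars, Kars, Lars, Mars, Qars, Rars, Tars, Vars, Wars and Yars, beside Hars and Gars. Their enzymes load glutamate and proline (Eprs), phenylalanine (Farsa and Farsb, the 2 subunits of one enzyme), isoleucine, lysine, leucine, methionine, glutamine, arginine, threonine, valine, tryptophan and tyrosine. Wars had the smallest p of these, with a difference of -0.73 ± 0.16 (limma adjusted p = 0.067). Aars, Cars and Sars, which load alanine, cysteine and serine, overlapped between genotypes, with differences of -0.32, -0.46 and -0.31. Dars, which loads aspartate, had a difference of 0.10 by its brighter probe and -0.45 by the other.

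The median genotype difference over the 20 synthetases was -0.72, -0.87 between the arrays numbered 1 and -0.47 between those numbered 2. It was -0.83 without Junbfl/flCd4-Cre array 2 and stayed between -0.83 and -0.47 when each array was left out in turn, when no gene at all was called by limma and between 1 and 9 of the 20 had an unadjusted p under 0.05. Their median array-number difference was -0.36 in Junbfl/flCd4-Cre and 0.20 in Junbfl/fl. Array 1 was at least 2-fold lower in both genotypes for Nars alone, and higher in both for 5 of the 20. In 5 of the 20, Aars, Cars, Dars, Nars and Sars, the array-number difference exceeded the genotype difference in both genotypes.

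**Figure D4:**
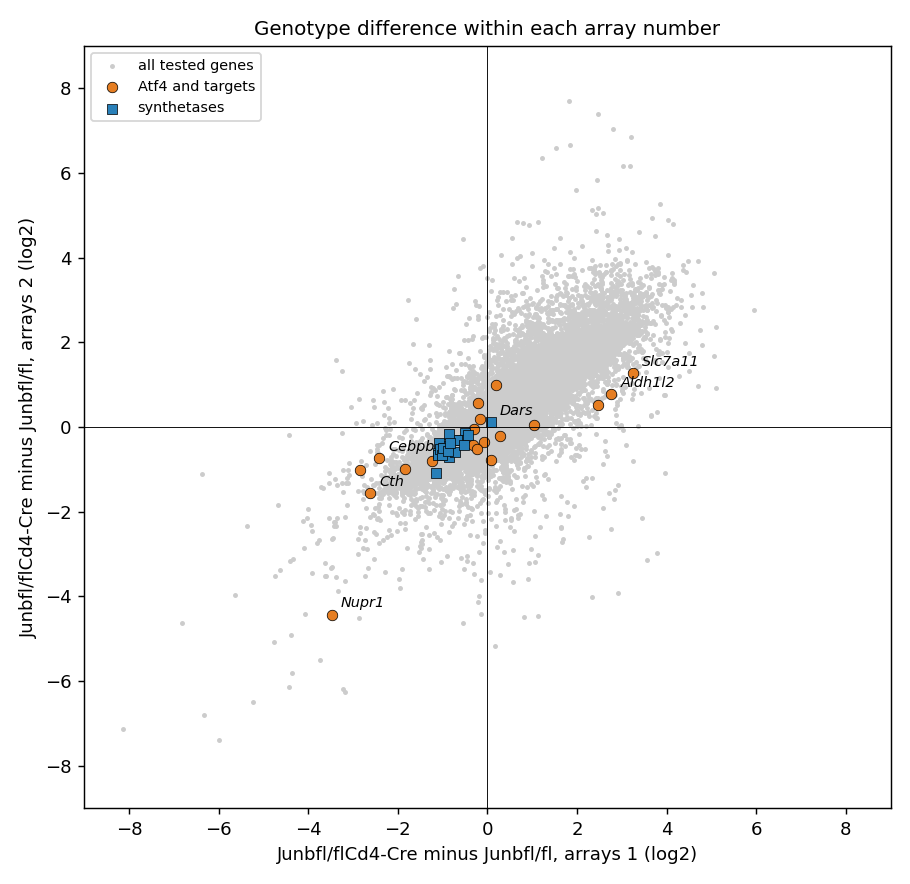
Genotype difference, Junbfl/flCd4-Cre minus Junbfl/fl (log2), between the arrays numbered 1 on the x axis and between those numbered 2 on the y axis, for all tested genes in grey, Atf4 and its tested targets as orange circles and the synthetases as blue squares. All synthetases but Dars lie in the lower left, below 0 in both, and the targets spread from Nupr1 at the lower left to Slc7a11 at the upper right.

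Signal strength moved with the genotype difference over the whole array. The median difference was -0.36 in the brightest of 5 equal bins of genes by mean signal, where 78.3% were below 0, and 0.92 in the dimmest bin. Of the 20 synthetases 13 were in the brightest bin, and of the 20 tested targets 3. The synthetase median of -0.72 lay below that of the brightest bin, and the part of signal strength in it was not tested. Scaling the arrays to their medians moved the median of all genes by -0.53. Both scalings move every gene of an array by the same amount. Relative to that of all genes, the synthetase median was therefore bound to be -0.73 under both. It was -0.39 after quantile normalization, which could change it.

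**Figure D5:**
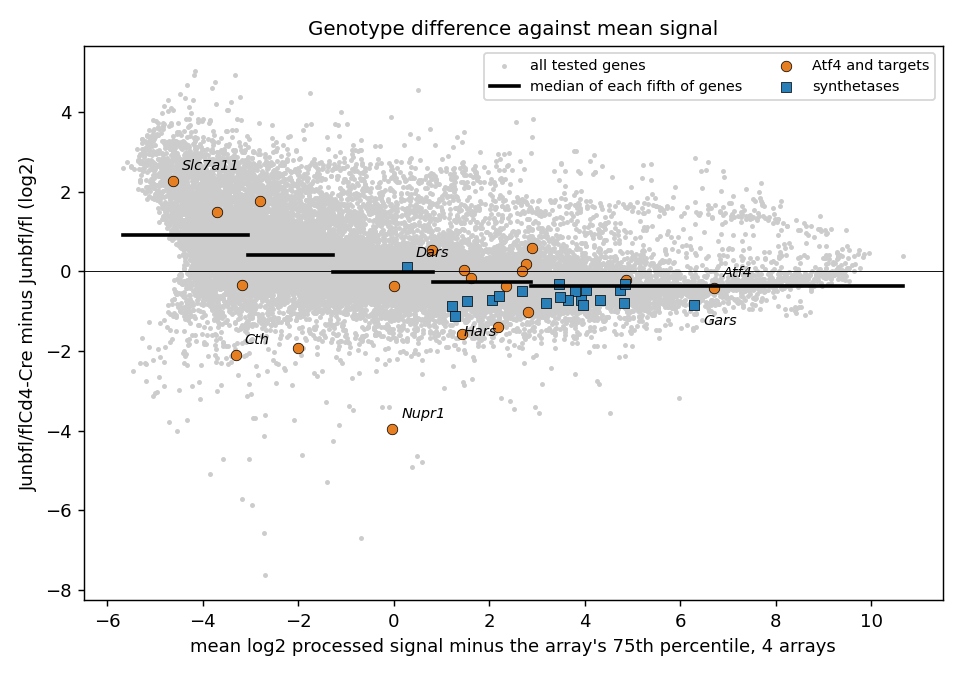
Genotype difference, Junbfl/flCd4-Cre minus Junbfl/fl (log2), against the mean log2 level over the 4 arrays, for all tested genes in grey, Atf4 and its tested targets as orange circles and the synthetases as blue squares, with black bars at the median of each of the 5 bins of genes by mean level. The bars step down from 0.92 at the dim end to -0.36 at the bright end, and most synthetases lie below the bar at their own level.

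The neighbouring parts of the pathway were read for comparison. Of 14 measured genes for eIF2 kinases, eIF2 and its exchange factor eIF2B, none was called by limma and the median was -0.59. An unadjusted p under 0.05 was found for 8, against 41.4% of all genes, and 13 were below 0, against 49.5% of all genes. Eif2b3, an eIF2B subunit, had the smallest p, with a difference of -1.10 ± 0.21 (limma adjusted p = 0.057), followed by Eif2s1, the subunit phosphorylated in the response, with -0.96 ± 0.19 (limma adjusted p = 0.062). Their median array-number difference was -0.01 in Junbfl/flCd4-Cre and 0.25 in Junbfl/fl. All 17 mitochondrial synthetases had differences below 0, against 49.5% of all genes, with a median of -0.49 and none called by limma. Of the 17, 7 had an unadjusted p under 0.05, a share near the 41.4% of all genes. The smallest p among them were those of Nars2 (-0.53 ± 0.14) and Rars2 (-0.65 ± 0.18), with limma adjusted p of 0.083 and 0.084.

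A further 15 measured ATF4 targets outside the 41 genes had a median genotype difference of -0.59 with none called by limma. An unadjusted p under 0.05 was found for 2, against 41.4% of all genes. They were Got1 (-1.04 ± 0.19, limma adjusted p = 0.054) and Phgdh (-1.33 ± 0.34, limma adjusted p = 0.079). Got1 encodes aspartate aminotransferase and Phgdh the first enzyme of serine synthesis. Of these 15, 12 were lower on array 1 in both genotypes, against 29.4% of all genes. By measured signals 3 were at least 2-fold lower in both, against 3.26% of all genes. These were Gpt2, an alanine aminotransferase, lower by 1.91 in Junbfl/flCd4-Cre and 2.59 in Junbfl/fl, Eif4ebp1, a repressor of translation, by 1.81 and 1.64, and the secreted factor Gdf15 by 1.44 and 1.80. The Junbfl/fl gap of Gdf15 rests on a dim array 1 level of -6.25. That lay below the lowest level well above background on that array (-4.85), so a 2-fold gap in Junbfl/fl was not shown for Gdf15. In the scaffold of the multi-synthetase complex, Eef1e1 differed by -1.23 ± 0.21 (limma adjusted p = 0.051) and Aimp2 by -0.96 ± 0.26 (limma adjusted p = 0.082). Of the 4 measured scaffold and related genes, none was called by limma and 3 had an unadjusted p under 0.05, against 41.4% of all genes. The related synthetase gene Tarsl2, outside the 41 genes, went the other way, with 1.41 ± 0.77 (limma adjusted p = 0.23). Tarsl2 was lower on array 1 by 1.54 in Junbfl/flCd4-Cre and 1.46 in Junbfl/fl.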

How the data were processed

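Expression was measured on 4 single-colour arrays. Per the file headers, the scans were quantified by Agilent Feature Extraction 11.5.1.1, and the deposited files hold the processed intensity (background-subtracted, not scaled between arrays) of each spot, mean and local background intensities and flags for spots well above background, saturated or outlying. Of 59305 non-control spots on each array, 108 to 215 were outliers and left out, which left 56310 probes, and none was saturated. The number of arrays limits the precision. Positions of probes are those of the files (mm9). The authors also deposited a table of log2 signals, log2 differences, p-values and moderated scores. How they made it is not stated in the labels or files. Its log2 signals served as an alternative.

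The log2 of the processed intensity minus the array's 75th percentile was compared between genotypes with limma 3.58.1 in R 4.3.3 (lmFit and eBayes, Benjamini-Hochberg over all 22486 genes, no covariate). A gene was read by its brightest probe among those well above background on each array of 1 genotype or both. Where an array was not well above background, an array-number fold is given as "at least", against the higher of the probe's own signal and the lowest signal well above background there. The fit was tested on simulated data with independent errors on each array. In the measured data deviations of same-numbered arrays correlated at 0.50 across all genes, which that simulation did not cover. Figures used matplotlib 3.10.9. Alternatives were other scalings, background corrections, filters and probe rules, the authors' values, leaving out each array, and the array number as a block. Names given with values in every array were called members, Atf4, Ddit3, Asns, Trib3 and the 3 members per role with the largest difference, and of other lists the 2 genes with the smallest p. The members and lists were chosen with earlier results of these data known.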

Additional observations from a re-analysis of the deposited data

How the results depend on the processing

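Of all genes, 1913 were called (83.0% higher), against 9412 with median scaling (21.0% higher, the median of all genes moved by -0.53), 455 with quantile normalization, 308 with normexp and quantile normalization, 1266 with the filter on all 4 arrays (75.6% higher), 616 with the authors' deposited log2 signals (72.7% higher), 750 with the brightest RefSeq probe (70.4% higher; chosen after seeing the data) and 0 with no filter (8833 at an unadjusted p under 0.05). Leaving out any array left 0 calls by limma, with 4962 to 8149 genes and 2 to 13 members at an unadjusted p under 0.05. Of the members 1 was called lower, against 16 with median scaling and 0 with quantile normalization, normexp, no filter, the mean over probes, the authors' log2 signals or any array left out. No label pairs the arrays and 2 pairs cannot show it; deviations of same-numbered arrays from their group means correlated at 0.50 across all genes and 0.83 across the members. With the array number as a replicate block 6852 genes (69.5% higher) and 8 members were called, all lower (Nupr1, Asns, Cth, Aldh18a1, Hars, Kars, Nars and Tars). A block by slide or scan was not run, since there was 1 of each.

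The targets at least 2-fold lower on array 1 in both genotypes numbered 6 with normexp, and such synthetases 0 with median scaling. The median of the targets in Junbfl/fl by array number was -0.85 with normexp and -1.03 with the authors' log2 signals, which also gave -0.0019 for the synthetases. The synthetase genotype median was -1.25 with median scaling. The target genotype median ran from -0.92 to 0.55 with 1 array left out. For 15 members leaving out an array turned the sign, with ranges of -0.71 to 0.070 (Aars), -3.62 to 0.80 (Asns), -0.93 to 0.11 (Atf4), -0.83 to 1.20 (Atf5), -0.98 to 0.055 (Cars), -0.37 to 0.022 (Cebpg), -2.99 to 2.26 (Chac1), -4.74 to 0.56 (Cth), -0.032 to 0.23 (Dars), -0.56 to 0.13 (Ddit4), -1.07 to 0.32 (Pck2), -1.61 to 0.91 (Pycr1), -0.65 to 0.024 (Sars), -0.77 to 0.83 (Sesn2) and -1.08 to 1.11 (Trib3). Median scaling turned Atf5 (-0.35), Trib3 (-0.52), Sesn2 (-0.50) and Dars (-0.43), since it moved every gene by the same -0.53. Quantile normalization turned Cebpg (0.010), Ddit4 (0.13) and Sars (0.022), normexp Cebpg (0.012) and Ddit4 (0.13), and the authors' log2 signals Ddit4 (0.11). The mean over probes turned Pycr1 (0.99) and Dars (-0.18), and the RefSeq probe Pycr1 (2.32) and Dars (-0.45). The cause of the other changes was not tested. With dim signals raised to the floor of their array, a choice made after seeing the data, 10 targets were still at least 2-fold lower on array 1 in both genotypes, against 2.89% of all genes.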

Other observations

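Outside the lists, and chosen after their values were seen, other genes also followed array number in both genotypes. Among the 6618 genes lower on array 1 in both, AA467197 was lower by 3.97 in Junbfl/flCd4-Cre and 3.96 in Junbfl/fl, with 3 of its 4 signals well above background. The glycine transporter gene Slc6a9 was lower by 3.03 and 3.36, and Slc7a3, a transporter of cationic amino acids, was lower by 2.72 and 3.91. In the other direction 7677 genes were higher on array 1 in both genotypes. The alpha globin gene Hba-a2 led them, higher by 5.65 in Junbfl/flCd4-Cre and 6.83 in Junbfl/fl. H2-Ab1, an MHC class II gene, was higher by 4.70 and 4.14, and the neutrophil gene S100a9 by 2.52 and 4.66, with 3 of its 4 signals well above background.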
